A study of Rattus norvegicus with 180 samples.

Results

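Large intestine was compared with small intestine in the perfused animals of a rat miRNA atlas, on 18 of its 180 arrays. For each of animals 4, 5 and 6, the log2 signals of cecum, colon and rectum were averaged and set against the average of duodenum, jejunum and ileum of the same animal, so each region had 9 arrays from 3 animals. The atlas profiled 55 organs of normal male Sprague-Dawley rats, 10 weeks old, on a custom 1-colour Agilent rat miRNA array. Animals 4, 5 and 6 had their blood flushed out with saline before the organs were taken, and the labels give no other treatment for them. Per the study's methods, all 6 intestinal samples were scraped mucosal epithelium, so the deeper wall is not represented by design. Each array held 1 RNA sample labelled with Cy3. A miRNA was tested if any 1 of the 6 organs had it above background on each of its 3 arrays, which left 177. Of all miRNAs on the array, 231 were detected on 1 or more of the 18 arrays and 114 on every one.

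miRNAs are short RNAs that guide Argonaute proteins to messenger RNAs, mainly through the seed near their 5′ end, and thereby lower translation or stability of the target. miR-192, miR-194 and miR-215 are made from a pair of related loci and are known as abundant miRNAs of gut epithelium under the control of HNF transcription factors. The miR-10 and miR-196 families are encoded within the HOX clusters, the genes that set position along the head to tail axis, and are known to be expressed in posterior parts of the body.

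The sequences below belong to the miRNAs on which the comparison turned, grouped by family, as mature RNAs from RefSeq on the rat assembly GRCr8 with the seed (bases 2 to 8 from the 5′ end) in capitals. Of 30 array names looked up, 29 had an entry there. miR-215 and miR-192 carry the same seed and differ at 3 of the 21 bases compared, while miR-194 has a seed of its own.
miR-215: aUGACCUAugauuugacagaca
miR-192: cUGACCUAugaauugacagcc
miR-194: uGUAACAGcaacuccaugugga
The 3 miR-196 members share 1 seed, and each pair of them differs at 1 of 22 bases.
miR-196a: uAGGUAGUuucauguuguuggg
miR-196b: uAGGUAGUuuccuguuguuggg
miR-196c: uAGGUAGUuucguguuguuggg
As listed, miR-10b starts 2 bases further along than miR-10a-5p, and the 2 RNAs differ at 1 of the 21 bases they then have in common.
miR-10a-5p: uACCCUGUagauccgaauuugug
miR-10b: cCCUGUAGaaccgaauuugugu
The following 3 are both arms of the miR-31 hairpin, of which miR-31* is the 3′ arm, and miR-205, a miRNA of stratified epithelia.
miR-31: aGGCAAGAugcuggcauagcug
miR-31*: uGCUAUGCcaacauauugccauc
miR-205: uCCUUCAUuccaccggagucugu

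On GRCr8, miR-215 lies at chr13:99383003-99383024 on the plus strand inside the gene Iars2, 251 bases from the mature miR-194 of the Mir194-1 hairpin. miR-192 lies at chr1:212994232-212994252 on the plus strand, 172 bases from the mature miR-194 of the Mir194-2 hairpin, and between Atg2a and Ehd1. Both hairpins give the same mature miR-194, so its signal is the sum of the 2 loci. miR-196a lies between Hoxc10 and Hoxc9 at chr7:135988900-135988921, on the plus strand. miR-196b lies between Hoxa9 and Hoxa10 at chr4:82661149-82661170, on the minus strand. miR-196c is next to Hoxb9 at chr10:81727561-81727582, and miR-10a between Hoxb5 and Hoxb4 at chr10:81779730-81779752, both on the plus strand. miR-10b lies inside Hoxd4 at chr3:80035886-80035907 on the plus strand. miR-31 lies at chr5:108714906-108714927 and miR-205 at chr13:107564588-107564610, both between genes on the minus strand.

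The arrays of the 2 regions differed in overall brightness, and this bears on every difference reported here. Before scaling, the 75th percentile of the 37 miRNAs detected on all 180 arrays was 540 to 1189 scanner units (median 796) on the small intestine arrays. It was 1353 to 3052 (median 1852) on the large intestine arrays. The ranges did not overlap, and the regions differed by 1.33 on the log2 scale. Total signal over all miRNAs on the array overlapped, from 69586 to 100009 in small intestine and from 75158 to 186223 in large intestine. Between 134 and 168 miRNAs were detected per small intestine array and between 160 and 191 per large intestine array, and no spot was saturated. The cecum array of animal 4 stood apart from the other large intestine arrays, with the lowest total signal and 18.9% of it in miR-21. Because the scale factor differed between regions, each call was recomputed under 6 scalings, and the miRNAs called the same way under all 6 are described first.

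**Figure D1:**
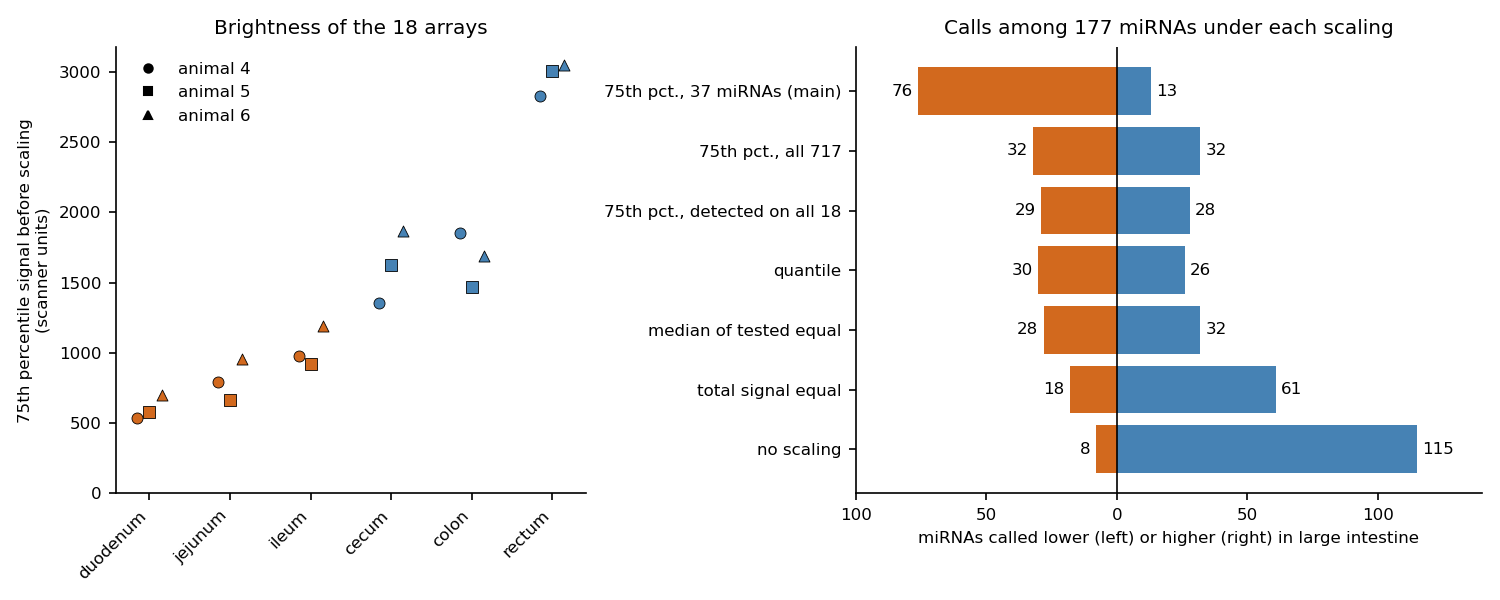
Left, the 75th percentile signal of each of the 18 arrays before scaling, in scanner units on a linear axis, by organ and animal (orange, small intestine; blue, large intestine). Right, the number of the 177 tested miRNAs called lower (orange) or higher (blue) in large intestine under each scaling, which runs from 76 lower and 13 higher under the main scaling to 8 lower and 115 higher with none.

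Averaged over its 3 organs, the large intestine had lower levels of miR-215, miR-194, miR-31 and miR-802 and higher levels of 5 miRNAs of the HOX clusters and of miR-205, although ileum or rectum shared the level of the other region for 4 of those 5 (miR-196a, miR-196c, miR-10a-5p and miR-10b). Under the main scaling, which sets the 75th percentile of the 37 always detected miRNAs equal, limma with the animal as a block called 13 of 177 miRNAs (7.34%) higher and 76 (42.9%) lower in large intestine at an adjusted p under 0.05, together 89 (50.3%). The median log2 difference over all 177 was -0.45, and 20.3% of them had a difference above 0. With the 75th percentile taken over all miRNAs on the array the split was 32 higher and 32 lower, and with the total signal set equal it was 61 higher and 18 lower. Under the other 3 scalings it was 28 and 29 (the miRNAs detected on all 18 arrays), 26 and 30 (quantile) and 32 and 28 (equal medians). The median difference ranged from -0.45 to 0.36 over these scalings.

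Called the same way under all 6 scalings were 13 miRNAs higher (7.34%) and 18 lower (10.2%). All 13 and 8 of the 18 were also called with no scaling at all. Of the 13, miR-196b, both miR-205 probe sets, miR-340-5p and miR-24-2* passed the filter only through large intestine, and of the 18, miR-802_v15.0 passed only through small intestine. The filter favours a difference in a miRNA that enters the test through 1 region, and the detection limits differed between the regions. These 6 are therefore described by their levels and bounds, with no p, and their place among the calls is no support. The 9 large intestine arrays lay above all 9 small intestine arrays for 2 miRNAs (1.13%), miR-196b and the miR-205_v15.0 probe set, and below them for 28 (15.8%), against 4 to 14 above and 5 to 9 below under the other 5 scalings. The totals varied with the animal left out. Without animal 4 the main scaling gave 17 higher and 99 lower, without animal 5 it gave 5 and 16, and without animal 6 it gave 4 and 5, although all 31 differences kept their direction each time. Of the 13 higher and 18 lower miRNAs, 13 and 18 were still called without animal 4, 5 and 15 without animal 5, and 4 and 5 without animal 6. An alternative that took median spot signals with normexp background correction, in place of the scanner's processed signals, kept 4 of the 13 higher calls and all 18 lower ones. Under it miR-204 (-0.65, adjusted p = 0.00886), miR-146b (-0.58, adjusted p = 0.0190), miR-340-5p (-1.20) and miR-24-2* (-1.19) were called lower. Both miR-205 probe sets (-0.37 and 0.09), miR-196a (-0.01), miR-196c (0.15) and miR-27a (0.40) were not called. The calls also rested on the filter. With every miRNA of the array tested, most of them at the floor in all samples, limma called 0 higher and 1 lower (miR-194*) and none of the 31, whose lowest adjusted p was then 0.0609, while 13 higher and 78 lower had an unadjusted p under 0.05, 29 of the 31 among them. The degrees of freedom behind each test were 2.06 in that fit and 5.65 in the main one. A looser filter that kept any miRNA seen on a single array still called 30 of the 31. An exact permutation test over 3 pairs cannot give a two-sided p below 0.25.

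**Figure D2:**
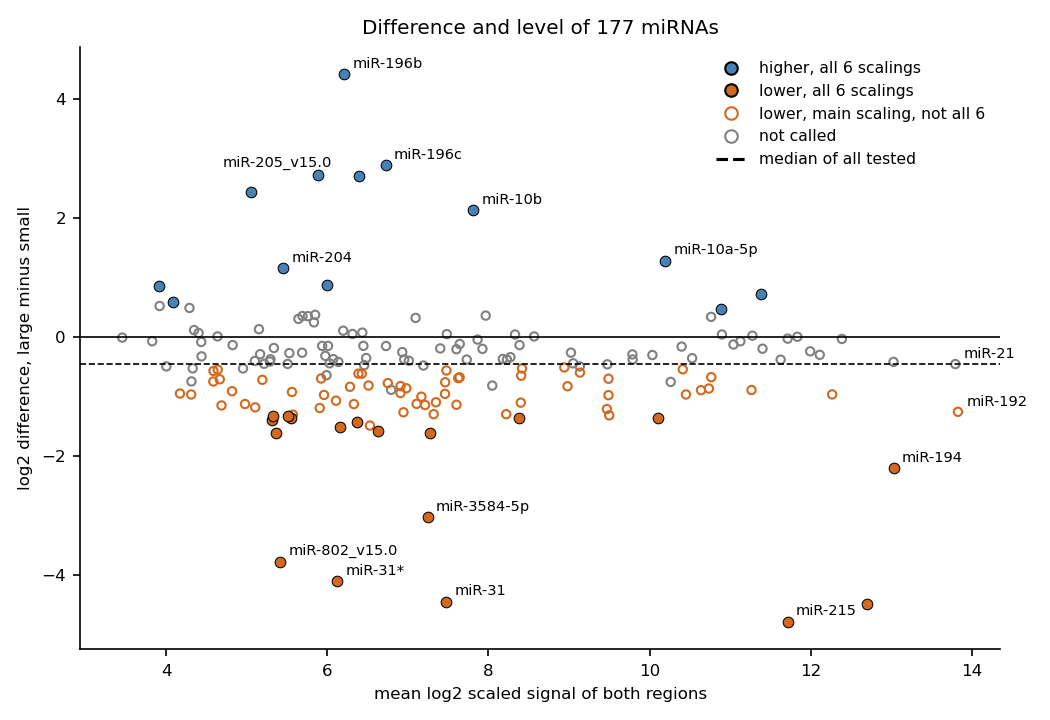
Log2 difference of large minus small intestine (vertical axis) against the mean log2 scaled signal of both regions (horizontal axis) for the 177 tested miRNAs. Filled points are the 31 called the same way under all 6 scalings, open orange points are calls of the main scaling that at least 1 other scaling did not make, and the dashed line is the median of -0.45. The 6 lowest points are the 2 miR-215 probe sets, miR-31, miR-31*, miR-802_v15.0 and miR-3584-5p.

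miR-215, the miRNA given as a marker of this tissue, fell most. Its scaled signals were 8553, 18079 and 44298 (lowest, median and highest of 9 arrays) in small intestine and 149, 834 and 1763 in large intestine. No large intestine array reached the lowest small intestine array. The difference was 27.4-fold, with a log2 difference of -4.78 ± 0.18 (SE, n = 3 animals, limma adjusted p = 2.87e-05). Over the 6 scalings it ranged from -4.78 to -3.92. A further probe set for the same miRNA, named with the suffix v15.0 after an older miRBase release, gave -4.48 ± 0.18.

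Along the small intestine miR-215 declined, with organ means of 30074 ± 13251 in duodenum, 20991 ± 4058 in jejunum and 9279 ± 669 in ileum (SD, n = 3). In the large intestine the order was turned, with 339 ± 171 in cecum, 706 ± 276 in colon and 1338 ± 371 in rectum. The spreads of duodenum and jejunum overlapped, as did those of cecum and colon and of colon and rectum. The step from ileum to cecum was -4.94 ± 0.91 (log2, SD, n = 3). The large intestine was still distinct from the rest of the body, since the 6 intestinal organs held the first 6 of 55 ranks, and the highest signal outside them was 20.5, in esophagus.

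miR-194, which is processed from hairpins beside both miR-192 and miR-215, fell as well. It had signals of 11243, 17589 and 34609 in small intestine and 1226, 3900 and 6838 in large intestine, without overlap, although before scaling the ranges overlapped (5202 to 8818 and 783 to 9740 scanner units). The log2 difference was -2.20 ± 0.20 (adjusted p = 0.000743), from -2.20 to -1.27 over the scalings, and without animal 6 it was -2.35 (adjusted p = 0.0635). The highest organ outside the intestine was liver with 1086.

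miR-192 differed less than its seed partner. Its signals were 17735, 21108 and 34114 in small intestine and 3406, 10467 and 14300 in large intestine. These ranges did not overlap under the main scaling. Between regions the log2 difference was -1.25 ± 0.21 (adjusted p = 0.00478), and that of its other arm, miR-192*, was -1.29 ± 0.20 (adjusted p = 0.00383). Only the main scaling among the 6 called either arm, and without scaling the differences were 0.08 and 0.04.

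Ratios of 2 miRNAs on 1 array do not depend on its scaling above the floor, and were added after their values were seen. The log2 ratio of miR-215 to miR-192 was -1.17 to 0.38 on the small intestine arrays and -4.75 to -2.97 on the large intestine arrays. The difference in this ratio was -3.52 ± 0.21 (SD, n = 3), with -3.38, -3.42 and -3.76 in animals 4, 5 and 6. In all 3 animals, then, the 2 RNAs with the same seed changed unequally between the regions. For miR-215 against miR-194 the difference in ratio was -2.58 ± 0.15 (SD, n = 3), again with no overlap of the arrays.

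**Figure D3:**
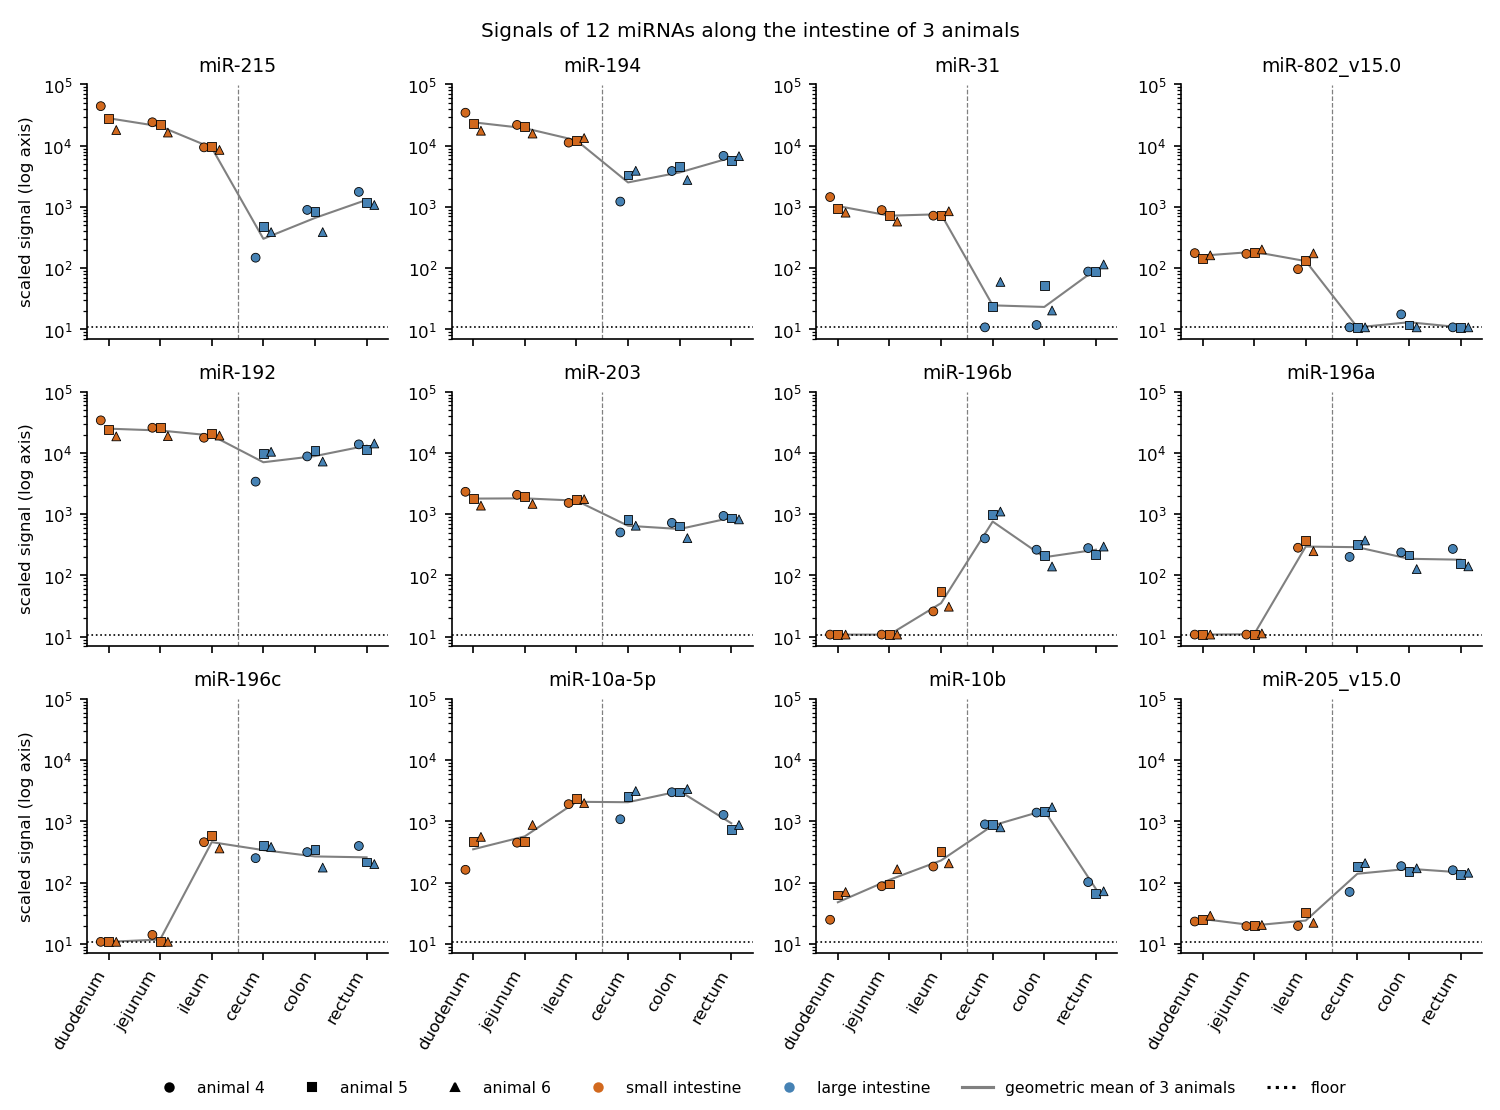
Scaled signals of 12 miRNAs (vertical log axes) in the 6 intestinal organs of animals 4, 5 and 6 (circle, square and triangle), in orange for small and blue for large intestine, with the geometric mean of the 3 animals as a line and the floor of 10.8 as a dotted line. miR-215, miR-31 and miR-802_v15.0 have their largest step down from ileum to cecum, miR-196a and miR-196c their largest step up from jejunum to ileum, miR-196b its largest step up from ileum to cecum, and miR-10b its largest step down from colon to rectum.

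miR-31, a miRNA known to act on growth signals in intestinal stem cells, was the next largest decrease. Its signals were 578, 808 and 1452 in small intestine and 10.8 (the floor), 52.6 and 115 in large intestine. It was detected on 9 of 9 and 8 of 9 arrays, and the ranges did not overlap. The log2 difference was -4.44 ± 0.33 (adjusted p = 0.000308), at least 21.6-fold with the undetected array at its lowest detected signal. Between animals it varied from -5.44 in animal 4 to -3.82 in animal 6. The adjusted p was 0.0635 without animal 6, at a difference of -4.75, and 0.0511 on the authors' normalized table, at -4.62.

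The other arm, miR-31*, moved with it. It had signals of 219, 280 and 429 in small intestine, against 10.8, 14.6 and 44.5 in large intestine, where 4 of 9 arrays detected it. The fit gave a floored log2 difference of -4.10 ± 0.20 (adjusted p = 5.24e-05), at least 16.3-fold at the detection limits. Within the large intestine both arms were highest in rectum, where miR-31 had 97.0 ± 15.8 against 31.3 ± 25.4 in cecum and 28.3 ± 21.5 in colon (SD, n = 3). Outside the intestine miR-31 was highest in the glandular stomach (924).

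miR-802, a miRNA known from liver, was detected in all small intestine samples by its v15.0 probe set and on 1 large intestine array, of colon. Signals were 96.6, 172 and 202 in small intestine, and in large intestine 10.8, 10.8 and 17.7. The floored log2 difference was -3.77 and ranged from -3.77 to -3.38 over the scalings. With the 8 undetected arrays at their lowest detected signal, small intestine was at least 12.5-fold higher. Jejunum ranked first of the 55 organs with 186 ± 15.6 (SD, n = 3), and liver was the highest organ outside the intestine with 137.

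miR-3584-5p fell by 3.02 ± 0.23 on the log2 scale (adjusted p = 0.000342). Its arrays varied widely, from 159 to 1400 in small intestine and from 19.5 to 274 in large intestine, and the ranges overlapped. Its signal in pancreas was 262362, far above any intestinal value. Pancreas was the highest of the 55 organs for 37 of the 177 tested miRNAs (20.9%) and for 6 of the 18 called lower under all 6 scalings, namely miR-3584-5p, miR-327, miR-409-3p, miR-2985, miR-3085 and miR-702-3p, and also for miR-466b-1*. These organ ranks rest on scaled signals. Of the 6, miR-409-3p, miR-2985, miR-3085 and miR-702-3p were dim and nearly level across the 2 regions before scaling (below). Their scaled pancreas signals were 540, 615, 675 and 539, and how far these follow from the scaling was not tested. No intestinal array detected a marker of pancreas acinar cells. The part of pancreatic RNA in these values was not tested. miR-327 had a log2 difference of -1.42 ± 0.15 (adjusted p = 0.00112), but of -0.32 without rectum (adjusted p = 0.321) and of 1.24 in animal 4 when only arrays of 1 slide were used. miR-466b-1* had -1.49 ± 0.25 (adjusted p = 0.00494) and was called under 5 of the 6 scalings.

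miR-193, best known from brown fat, fell by 1.50 ± 0.17 on the log2 scale (adjusted p = 0.00133). Its low values lay in rectum, without which the difference was -0.52 (adjusted p = 0.0869). The miR-193 call was also lost without animal 5 (adjusted p = 0.0547) and without animal 6 (adjusted p = 0.0650). Its signal was 98.8 ± 6.00 in cecum and 73.7 ± 21.1 in colon, near the 104 ± 4.93 of ileum, and it was not well above background on any rectum array. miR-1949 read 118, 278 and 623 in small intestine and 35.8, 114 and 228 in large intestine, with overlap. It had a log2 difference of -1.61 ± 0.20 (adjusted p = 0.00177), and the call was lost without scaling (-0.27, adjusted p = 0.225), without animal 5 or 6 (adjusted p of 0.0526 and 0.0734) and with no block for the animal (adjusted p = 0.0543). miR-203, a regulator of keratinocyte differentiation, had 1382, 1763 and 2325 in small intestine and 407, 723 and 938 in large intestine, without overlap. The log2 difference was -1.36 ± 0.15 (adjusted p = 0.00112), and without scaling it was -0.02. Without animal 6 the miR-203 call was lost (adjusted p = 0.0635).

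**Figure D4:**
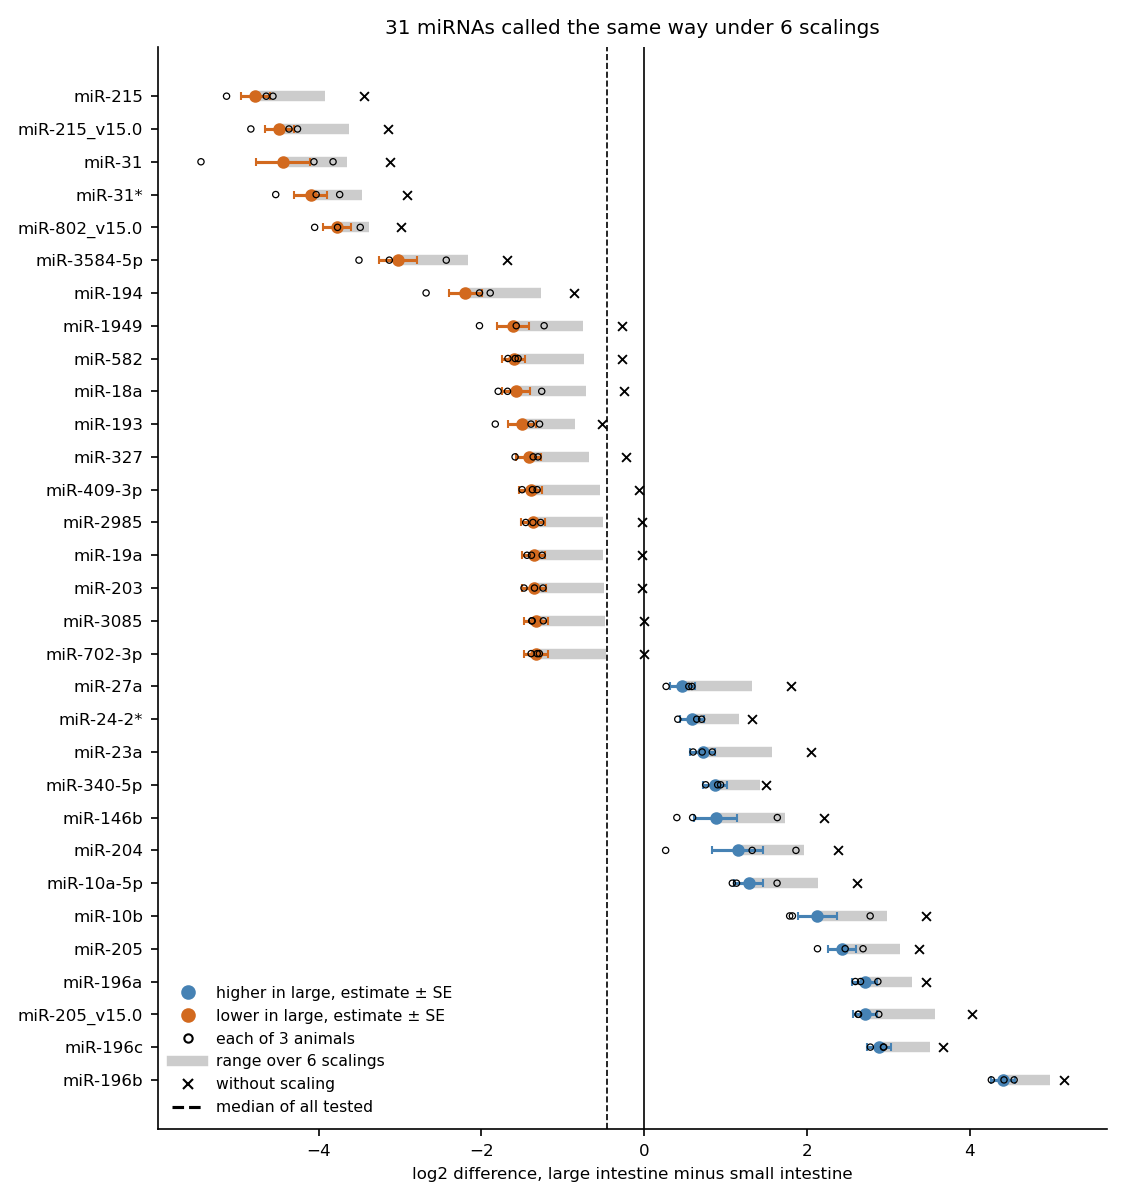
Log2 difference of large minus small intestine for the 31 miRNAs called the same way under 6 scalings, with the estimate ± SE, the 3 animals as open circles, the range over the 6 scalings as a grey bar and the unscaled value as a cross. The crosses of the 13 higher miRNAs and of miR-215 down to miR-194 stay on their side of 0, while those of miR-409-3p to miR-702-3p lie at about 0.

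A group of dim miRNAs was level across the 2 regions before scaling. In scanner units, miR-2985 read 25.7 to 32.2 units on the small intestine arrays and 24.4 to 31.4 on the large intestine arrays. For miR-3085 these ranges were 24.2 to 31.3 and 23.1 to 30.5, and for miR-702-3p they were 20.8 to 25.8 and 19.3 to 28.6. After scaling, the 3 had log2 differences of -1.36, -1.33 and -1.33, close in size to the 1.33 by which the scale factors differed. miR-409-3p (-1.40) and miR-582 (-1.60) had unscaled differences of -0.06 and -0.27. Without scaling, 90.4% of the 177 tested miRNAs had a difference above 0, with a median of 0.81. Of the 76 miRNAs called lower, 45 had an unscaled difference within 0.5 of 0, and 59 had one above 0.

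The miR-17-92 and miR-106b-25 clusters, of which the former is known to be driven by Myc in dividing cells, were lower after scaling, with 8 of 9 tested members called lower (42.9% of all tested miRNAs were) and 2 of them, miR-18a and miR-19a, under all 6 scalings (10.2% of all tested). miR-18a read 119, 166 and 261 in small intestine and 28.4, 42.7 and 145.8 in large intestine, with overlap. It had a log2 difference of -1.58 ± 0.17 (adjusted p = 0.00112), and its call was lost without animal 5 (adjusted p = 0.0526) and without animal 6 (adjusted p = 0.0728). For miR-19a the signals were 318, 482 and 836 against 136, 221 and 278, without overlap. The difference was -1.36 ± 0.15 (adjusted p = 0.00112), and the call was lost without animal 6 (adjusted p = 0.0635). miR-20a (-1.21), miR-17-5p (-1.14) and miR-19b (-0.96) were called under 5, 5 and 3 scalings. Unscaled values of these 5 lay between -0.24 and 0.37. After the main scaling, miR-19a, miR-20a and miR-17-5p were highest in duodenum among the 6 organs and lowest in rectum. Thymus, a tissue rich in dividing lymphocytes, had the highest scaled signal of the 55 organs for all 3. The signal used for scaling was 540 to 697 scanner units on duodenum arrays and 2829 to 3052 on rectum arrays, so scaling raised duodenum relative to rectum. Before scaling, their large intestine ranges enclosed those of small intestine (miR-19a, 113 to 318 against 146 to 262 scanner units). The organ order without scaling was not tested.

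Most HOX cluster miRNAs that could be tested rose in large intestine. Of 11 on the array 6 were tested, and 5 were called higher under all 6 scalings (7.34% of all tested miRNAs were). The 5 include miR-196b, which passed the filter only through large intestine, so its call adds no support. All 5 were also called without scaling, where 90.4% of all tested miRNAs had a difference above 0. The median log2 difference of the 6 tested members, miR-196b included, was 2.42, against -0.45 over all 177 tested. The members differed in where along the intestine they appeared.

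miR-196b rose most. Its signals were 10.8, 10.8 and 55.1 in small intestine, where 2 of 9 arrays (both of ileum) detected it, and 140, 280 and 1106 in large intestine, where all 9 did. The ranges did not overlap. This amounted to a floored log2 difference of 4.41, with 4.42, 4.26 and 4.54 in animals 4, 5 and 6. With the 7 undetected arrays held at the lowest signal each detected, the difference was at least 12.5-fold. Cecum had the highest signal of the 55 organs (830 ± 375), followed by rectum (266 ± 40.1, SD, n = 3). Cecum exceeded ileum (37.3 ± 15.6) by 4.43 ± 0.64 on the log2 scale.

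miR-196a and miR-196c, which differ from miR-196b at 1 base, did not divide at the ileocecal border. miR-196a was detected on no array of duodenum or jejunum, had 301 ± 61.9 in ileum, and then 299 ± 88.8, 193.9 ± 58.8 and 189 ± 71.5 in cecum, colon and rectum. The ileum did not differ from the cecum beyond its spread (step of -0.03 ± 0.56, SD, n = 3), whereas ileum was at least 14.9-fold above jejunum when each jejunum array was held at the lowest signal it detected. miR-196c followed the same course, with 468 ± 111 in ileum, the highest of the 55 organs, and 348 ± 84.3 in cecum. Their floored region differences were 2.71 ± 0.15 (adjusted p = 7.43e-05) and 2.89 ± 0.15 (adjusted p = 5.78e-05). At the detection limits they were at least 3.87-fold and 4.49-fold, and the regions overlapped through ileum in both. With the normexp alternative the differences were -0.01 and 0.15, and neither miRNA was called. Cross-hybridisation between the 3 probe sets was not tested. The other arm, miR-196c*, had 0.32 ± 0.28 (adjusted p = 0.37), with signals of 28.6, 137 and 453 in small and 109, 132 and 373 in large intestine.

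miR-10b had organ means that increased from duodenum to colon and were low again in rectum. Its signals were 24.8, 95.3 and 323 in small intestine and 66.8, 882 and 1713 in large intestine. The ranges overlapped because of rectum, where the mean was 80.6 ± 19.1 against 861 ± 50.8 in cecum and 1520 ± 169 in colon (SD, n = 3). The log2 difference was 2.13 ± 0.24 (adjusted p = 0.00123). The step from colon to rectum was -4.26 ± 0.43 on the log2 scale.

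miR-10a-5p, from the HOXB cluster like miR-196c, was already high in ileum. It read 163, 561 and 2404 in small intestine and 731, 2576 and 3391 in large intestine, with overlap. The fit gave a log2 difference of 1.28 ± 0.18 (adjusted p = 0.0025). Ileum (2106 ± 261), cecum (2268 ± 1060) and colon (3137 ± 220) were followed by a lower rectum (963 ± 285). Without animal 6 the adjusted p of both miR-10 members was 0.0728, at differences of 2.30 and 1.38, and without animal 5 it was 0.0538 for miR-10b and 0.0610 for miR-10a-5p.

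miR-205, a miRNA of stratified epithelia that represses ZEB factors, rose in both probe sets. The v15.0 probe set read 19.6, 22.1 and 32.2 in small intestine, where 2 of 9 arrays detected it, and 70.7, 160 and 209 in large intestine, where all 9 did, without overlap. The floored log2 difference was 2.71, at least 6.12-fold at the detection limits. The other probe set was not well above background on any small intestine array and was detected on 8 of 9 large intestine arrays, which makes it at least 3.5-fold higher (floored log2 difference 2.43). In the v15.0 probe set cecum, colon and rectum, at 155 ± 74.1, 170 ± 18.0 and 148 ± 11.1, did not differ beyond their spreads. Esophagus, lined by squamous epithelium, had 2076 in that set. The other set had 61.6 ± 46.4, 93.0 ± 11.1 and 112 ± 23.0 in the same 3 organs (SD, n = 3), and was highest in eyeball (1100). miR-203 and miR-31, which stood on the same list of squamous and injured epithelium, fell. Of the 5 tested probe sets on this list, 3 were called lower under all 6 scalings (10.2% of all tested miRNAs were). The other 2 are the miR-205 probe sets, which passed the filter only through large intestine, so their calls as higher add no support.

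Of the remaining higher miRNAs, miR-23a, miR-27a and miR-24-2* come from 1 cluster. Its mature sequences lie 143 bases apart for miR-23a and miR-27a and 75 bases apart for miR-27a and miR-24-2*. miR-23a had signals of 1358, 2192 and 2673 in small intestine and 2477, 3336 and 4627 in large intestine. The ranges overlapped slightly, and the log2 difference was 0.72 ± 0.15 (adjusted p = 0.0102). Its call was lost without animal 5 (adjusted p = 0.102) and without animal 6 (adjusted p = 0.0788). miR-27a had 0.47 ± 0.15 (adjusted p = 0.0495), a call at the threshold that was lost without animal 5 or 6, without duodenum, jejunum or rectum (0.24 without rectum, adjusted p = 0.233) and with a lower floor, outlier spots kept, the scanner's total signal or linear means over organs (adjusted p of 0.0505 to 0.0549). miR-24-2* had a floored difference of 0.59, but was detected on the 3 rectum arrays alone (mean 31.7), close to the lowest signals that small intestine arrays detected (14.9 to 31.9), so no fold is given, and with the floor at the highest detection limit the difference was 0.05. The copies from the other cluster, which carry the same seeds and differ at 1 of 21 bases, had 0.02 ± 0.16 (miR-23b) and -0.16 ± 0.15 (miR-27b) and were not called under the main scaling. Under the other 5 scalings both lay above 0, and miR-23b was called higher under 4 of them. On single arrays the log2 ratio of miR-23a to miR-23b was higher in large intestine by 0.69 ± 0.17, and that of miR-27a to miR-27b by 0.63 ± 0.25 (SD, n = 3).

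miR-146b, which with miR-146a acts as a brake on NF-kB signalling, read 26.9, 49.3 and 95.0 in small intestine and 21.5, 103 and 308 in large intestine. It was highest in cecum (235 ± 65.2), the first of the 55 organs, and lowest in rectum (25.6 ± 3.95). Its log2 difference was 0.88 ± 0.27 (adjusted p = 0.0381) and ranged from 0.88 to 1.73 over the scalings. Without cecum the difference was 0.17 (adjusted p = 0.564), and the call was kept without 2 of the 6 organs and without 1 of the 3 animals. miR-146a has the same seed and was not called (-0.81 ± 0.37, adjusted p = 0.117). The ratio of miR-146b to miR-146a did not overlap between regions, with -3.32 to -2.28 on the small intestine and -1.91 to -0.41 on the large intestine arrays (log2). It was higher in large intestine by 1.30, 2.01 and 1.76 in animals 4, 5 and 6.

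miR-204, encoded inside Trpm3, had 10.8, 29.7 and 73.4 in small and 11.0, 83.7 and 104 in large intestine. The difference was 1.15 ± 0.31 (adjusted p = 0.0258), though with the slide as a block the adjusted p was 0.0665, and within the slide that held small intestine and cecum of animal 4 the difference was -1.80. The call was also lost without animal 5 or 6, without jejunum, colon or rectum, and on the authors' normalized table (adjusted p = 0.0572). miR-340-5p was detected on all 9 large intestine arrays and on none of small intestine. Its large intestine signals were 10.8, 25.9 and 35.1, while the lowest signals that small intestine arrays detected were 14.9 to 31.9, so its floored difference of 0.87 has no fold that can be bounded above 1. With the floor raised to the highest of the 18 arrays' detection limits the difference was 0.02.

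Among families with other roles no member was called under all 6 scalings. The miR-200 family, which maintains the epithelial state, had 2 of 8 tested members called lower, none under all 6 scalings, and a median of -0.40. miR-200b was not called (-0.42 ± 0.18, adjusted p = 0.103), nor was miR-21, a miRNA often raised in inflammation and tumours (-0.45 ± 0.20, adjusted p = 0.103). Both turned above 0 under each of the other 5 scalings. The 3 members of the cluster of miR-183, miR-96 and miR-182 were lower under the main scaling, with a median of -0.86, but none under all 6. Medians of the let-7 (-0.27), miR-30 (-0.49), miR-29 (-0.25) and miR-15/16 (-0.20) families lay near the median of all tested miRNAs, with 2 of 8, 3 of 7, 1 of 4 and 1 of 5 members called lower and none under all 6 scalings, against 42.9% and 10.2% of all tested miRNAs. Of the miR-181 family none of 4 was called, and of miR-99/100 and miR-125 there was 1 lower of 5, with medians of 0.01 and 0.01, which lay 0.46 above that of all tested miRNAs.

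**Figure D5:**
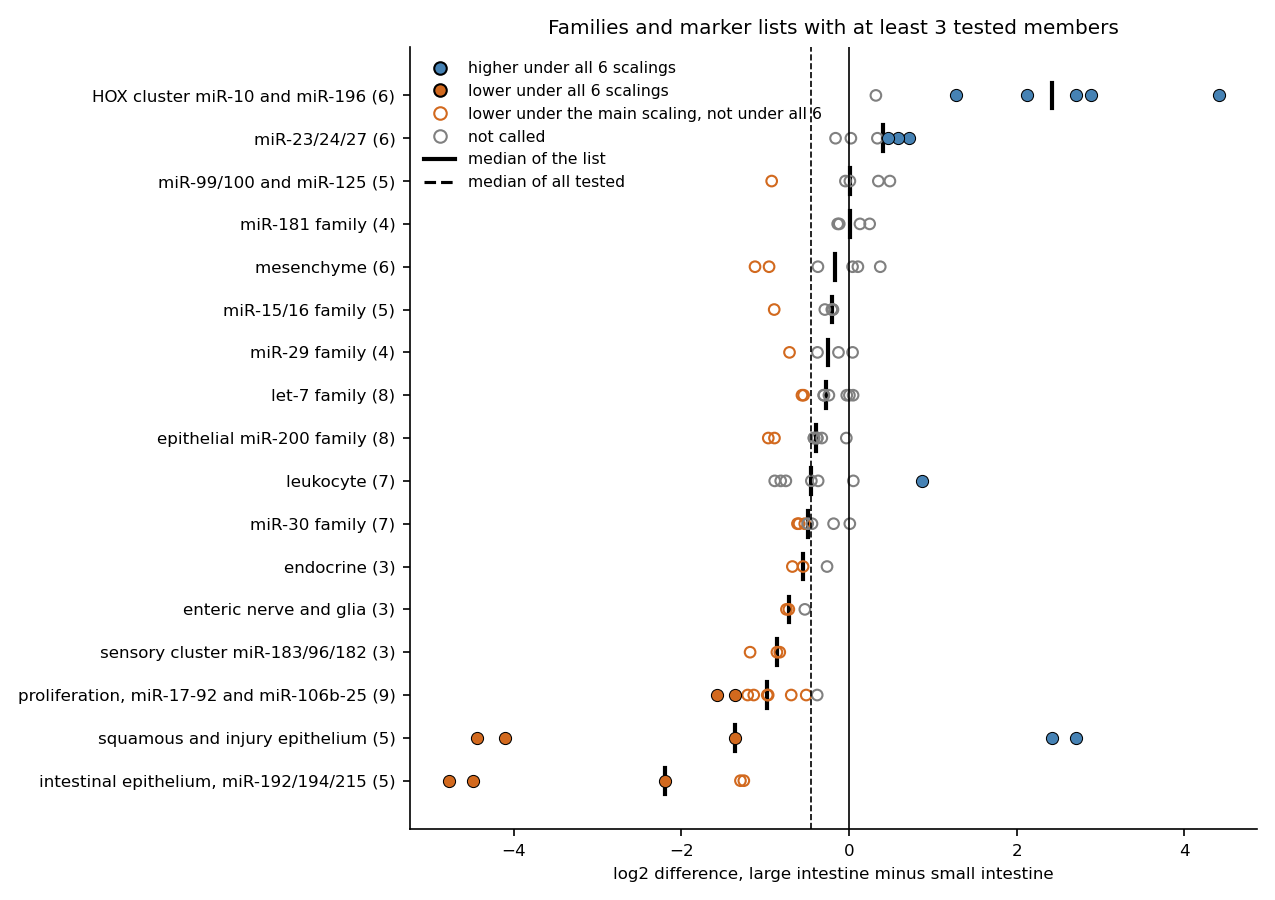
Log2 differences of the tested members of the 17 families and marker lists with at least 3 of them, with the number tested in brackets, the list median as a short bar and the median of all tested miRNAs (-0.45) as a dashed line. Filled points were called under all 6 scalings: 5 of the HOX cluster list, 3 of the miR-23/24/27 list and 1 of the leukocyte list lie to the right, 3 of the list of miR-192, miR-194 and miR-215 and 2 of the miR-17-92 and miR-106b-25 list to the left, and the squamous list has 2 to the right and 3 to the left.

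Under the main scaling, markers of cells other than epithelium separated rectum more than they separated the regions. Smooth muscle, leukocyte, endothelial and mesenchymal lists had 2, 7, 2 and 6 tested members, and the 1 member of these called under all 6 scalings was miR-146b (7.34% of all tested miRNAs were called higher and 10.2% lower). Under the main scaling miR-143, a miRNA of smooth muscle, and both arms of miR-140, a miRNA of cartilage and mesenchyme, were also called lower (-0.86, -0.95 and -1.12). The summed signal of the detected leukocyte markers was 945 to 4803 in small intestine, 2131 to 6651 in cecum and colon, and 237 to 588 in rectum. For smooth muscle the sums were 618 to 6620, 1678 to 4444 and 165.3 to 363, for endothelium 114 to 542, 242 to 709 and 48.8 to 68.6, and for mesenchyme 707 to 1351, 900 to 1461 and 320 to 338. The 3 rectum samples lay below every other intestinal sample for all 4 lists. In these bulk extracts, fewer cells of a type and less RNA per cell cannot be told apart, and the part of such cells in the differences above was not tested.

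The epithelial markers were present in every sample. The summed miR-200 family signal was 24445 to 37781 in small intestine and 8727 to 32546 in large intestine, and that of miR-192, miR-194 and miR-215 was 55083 to 186720 and 5131 to 26645. No intestinal array detected a marker of liver or pancreas acinar cells. The erythroid marker miR-451 was detected on 0 of 9 small and 5 of 9 large intestine arrays, with signals up to 47.3. It was not called (0.52 ± 0.25, limma adjusted p = 0.128). The lowest signals detected were 14.9 to 31.9 on small and 5.71 to 15.5 on large intestine arrays, so these counts also depend on the detection limits. The 3 largest differences that were not called were of leukocyte miRNAs, miR-142-5p (-0.89 ± 0.46, adjusted p = 0.156), miR-146a (above) and miR-142-3p (-0.75 ± 0.47, adjusted p = 0.224). With the total signal set equal, miR-146a (0.04) and miR-142-3p (0.10) lay above 0. miR-142-3p was 257 ± 122 in rectum against 2392 ± 1251 in cecum and 2428 ± 745 in duodenum, and its region difference was 0.26 without rectum.

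The calls were not all of 1 border. Among the 18 lower miRNAs the largest step between neighbouring organs lay between ileum and cecum for 12, and between colon and rectum for 4. Among the 13 higher ones it lay there for 5 and 4, and between jejunum and ileum for 3 (miR-196a, miR-196c and miR-10a-5p). Over all 177 tested miRNAs it lay between ileum and cecum for 53 (29.9%), between colon and rectum for 81 (45.8%) and between jejunum and ileum for 9 (5.08%). Of those counted at the ileum to cecum step, miR-196b, both miR-205 probe sets and miR-340-5p passed the filter only through large intestine. miR-802_v15.0, counted there too, passed only through small intestine, and miR-24-2*, counted at colon to rectum, only through large intestine. The filter favoured such steps, so these members add no support to the counts. Without rectum, 10 of the 13 and 16 of the 18 were still called under the main scaling, and the totals were 16 higher and 56 lower. In a fit of the 18 arrays with the slide as a block, 12 of the 13 and all 18 were still called, and miR-204 was not (adjusted p = 0.0665). Among arrays of 1 slide, 29 of the 31 kept their direction in animal 4 (the exceptions were miR-327 and miR-204, while miR-205 had 0.07 there and miR-18a -0.27), 31 in animal 5 and 31 in animal 6, whose 6 organs were all on 1 slide, so that its values equal those of the main fit.

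Both arms of a hairpin were measured for 18 pairs. Relative to the median of all tested miRNAs, the 2 arms had the same sign in 14 pairs. In 5 pairs both arms were called lower under the main scaling, which called 42.9% of all tested miRNAs lower. Only the miR-31 pair had both arms called under all 6 scalings. The arms of miR-31 (-4.44 and -4.10) and miR-192 (-1.25 and -1.29) lay close together. Those of miR-196c lay apart (2.89 and 0.32), and miR-196c* was detected on 5 of 6 arrays of duodenum and jejunum, on which miR-196c itself was not detected.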

How the data were processed

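Total RNA of each organ was labelled with Cy3 and hybridised by the authors to 1-colour Agilent arrays, and the spots were read with Agilent Feature Extraction 10.7.3 (submitters' processing notes). The deposited scanner files give background-subtracted spot signals as linear intensity values, and the authors' normalized table gives intensity values scaled to the 75th percentile of each array in Genedata Expressionist. The table served as an alternative. No genome build was needed to make these values.

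For each miRNA, spots not marked as outliers were averaged per array. A miRNA counted as detected where the scanner software marked more than 50% of its spots as clearly brighter than background. Arrays were scaled to equal 75th percentiles over the 37 miRNAs detected on all 180 arrays (target 2118), floored at 10.8 (the median over arrays of the lowest detected signal) and log2 transformed. Region means per animal were fitted with limma 3.58.1 (R 4.3.3; lmFit and eBayes, animal as a block), with Benjamini-Hochberg adjustment over 177 miRNAs at 0.05. The procedure was tested on simulated data. The named miRNAs are the 12 largest differences in each direction among those called with the same sign in 3 animals, list members, miRNAs detected on all arrays of 1 region only, the 3 largest differences not called, and those sharing a seed or hairpin with these; the remaining calls made under all 6 scalings were added after their values were seen. The comparison, its members and the 25 lists were chosen with earlier results of these data known. Names of array probe sets were matched by hand to RefSeq. The arrays lay on 5 slides: animal 4 had small intestine and cecum on 1 slide and colon and rectum on another, animal 5 had rectum alone on another slide, and animal 6 had all 6 organs on 1. Scan time coincided with animal. The correlations of same-animal deviations between regions were -0.04, 0.08 and 0.31, and pairing came from the animals themselves. For bounds, the lowest signal of a detected miRNA on each array stood in for undetected ones. Alternatives covered the scaling, floor, background correction, spot summary, filter, fit and each animal and organ left out. The normexp alternative (offset 50) used median spot signals, so it changed the spot signal as well as the background correction.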

Additional observations from a re-analysis of the deposited data

How the results depend on the processing

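The split into higher and lower miRNAs depended on the scaling and the filter. Totals called higher and lower were 32 and 32 (75th percentile over all miRNAs on the array), 28 and 29 (over those detected on all 18 arrays), 26 and 30 (quantile), 32 and 28 (equal medians), 26 and 25 (the authors' table), 4 and 145 (normexp), 4 and 61 with only miRNAs detected on all 18 arrays, and 0 and 1 with no filter, where all miRNAs on the array were tested and 13 and 78 had an unadjusted p under 0.05. Scalings chosen after seeing the data gave 61 and 18 (equal total signal) and 115 and 8 (none). With no replicate block 14 were higher and 81 lower. Leaving out 1 animal gave 4 to 17 higher and 5 to 99 lower. Arrays of large intestine all above those of small intestine numbered 4, 7, 4, 4 and 4 under these first 5 settings, 0 (normexp), 14 (equal total), 18 (none), 0 (detected on all 18 arrays) and 4 without ileum or without rectum, and 2 to 3 without 1 animal. Arrays all below numbered 5, 8, 9, 5 and 5, then 66, 7 and 5, 47 without ileum, and 30 to 45 without 1 animal. Of the 45 named miRNAs 23 kept their sign in every setting run. Without scaling the sign turned for miR-3085 (0.0010), miR-702-3p (0.0031), miR-19b (0.37), miR-17-5p (0.20), miR-20a (0.13), miR-192 (0.079), miR-192* (0.039), miR-146a (0.52) and the arms miR-142-5p (0.44) and miR-142-3p (0.58). Under these settings in the order all miRNAs, those detected on all 18 arrays, quantile, equal medians, the authors' table, equal total and none it turned for miR-21 (0.14, 0.11, 0.80, 0.18, 0.10, 0.40, 0.88), miR-200b (0.18, 0.14, 0.73, 0.21, 0.14, 0.44, 0.92) and miR-27b (0.44, 0.40, 0.39, 0.47, 0.40, 0.70, 1.17). miR-142-3p turned under quantile (0.020) and equal total (0.10), and miR-146a under equal total (0.043). Normexp turned miR-196a (-0.012), miR-196c* (-0.70), miR-205 (-0.37), miR-204 (-0.65), miR-146b (-0.58), miR-340-5p (-1.20) and miR-24-2* (-1.19). Within the slide of animal 4, which holds small intestine and cecum, it turned for miR-327 (1.24), miR-21 (0.47), miR-142-5p (1.37), miR-146a (1.68), miR-142-3p (1.90), miR-196c* (-0.94), miR-204 (-1.80) and miR-27b (0.076). Without rectum it turned for miR-146a (0.34), miR-27b (0.019) and both miR-142 arms (0.056 for miR-142-5p, 0.26 for miR-142-3p). miR-196c* turned without duodenum (-0.38) and ranged from -0.046 to 0.65 when 1 animal was left out. miR-23b turned with the slide as a block (-0.014) and without duodenum (-0.11), cecum (-0.11) or colon (-0.023), and ranged from -0.059 to 0.12 when 1 animal was left out. The causes were not tested. At the detection limits of the arrays, miR-24-2* and miR-340-5p have no fold above 1.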
